A study of Homo sapiens with 6 samples.

Results

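The FGF and PDGF ligands and receptors comprised 10 genes out of 20030 in the count table, namely the ligands FGF2, FGF5, PDGFA and PDGFB and the receptors FGFR1, FGFR2, FGFR3, FGFR4, PDGFRA and PDGFRB. They were chosen by gene symbol from 2 growth factor families, with their IGF2BP1-KD against IGF2BP1-NC values in these libraries already known. The fold changes of the 10 genes are therefore given as a description, without p-values, and nothing is supported by them. All 10 genes had a row. The labels name the cells as NCI-H929, an established human multiple myeloma cell line, which the study grew in RPMI-1640 medium with fetal bovine serum. RNA was sequenced in 3 libraries of knockdown cells (IGF2BP1-KD, shortened to KD) and 3 of negative control cells (IGF2BP1-NC, shortened to NC). The study made its knockdown lines by lentiviral transduction of a hairpin RNA against IGF2BP1 and drug selection of a stable culture. It lists 2 hairpin target sequences and does not say which of them these libraries carry. The labels name no treatment or time point, and nothing states that the replicates came from separate transductions, so the spread between replicates may be technical.

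Fibroblast growth factors bind receptor tyrosine kinases (FGFR) together with heparan sulfate chains at the cell surface, and the paired receptors then pass the signal through the adaptor FRS2 to the RAS-ERK and PI3K pathways. PDGF chains are secreted as dimers and activate PDGFRA and PDGFRB, which also signal through RAS-ERK, PI3K and phospholipase C gamma. In myeloma these families are known mainly for FGFR3, which the translocation t(4;14) places, together with NSD2, next to immunoglobulin heavy chain enhancers, and NCI-H929 is among the lines known for this translocation. IGF2BP1, the targeted gene, encodes an RNA-binding protein that reads N6-methyladenosine (m6A) on mRNA.

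Because IGF2BP1 and its relatives are reported to prefer m6A in the sequence UGGAC, the reference mRNAs of these genes were searched for it, written TGGAC as DNA and on the mRNA strand alone. The canonical mRNA of each gene in GENCODE release 44 (GRCh38) was used. The sequence occurred in all 10 mRNAs, as it did in 94.3% of the mRNAs of the tested genes, and in the 3′ UTR of all 10, where 61.2% of the mRNAs of the tested genes held it. A longer 3′ UTR has more places for a match, and these shares were not adjusted for length. The median 3′ UTR of the tested genes was 1276 bases, and of the 10 genes that of FGFR4 alone was shorter. Per kilobase of mRNA the number ranged from 0.301 in FGF2 to 2.558 in FGFR3, and the median over the tested genes was 1.146. A match is a string of letters in the reference, and neither methylation nor binding was measured in these files. The matches in the 3′ UTRs of the 5 genes called lower in IGF2BP1-KD cells are printed, since these are the mRNAs the results turn on. Each line gives 21 bases of the mRNA, 5′ to 3′, and the capitals mark TGGAC.

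FGF2, mRNA base 4643: taatcatcTGGACtttaagaa
FGF2, mRNA base 5181: taagtacaTGGACatttttaa
FGF5, mRNA base 1051: aaaattacTGGACacagcttc
FGF5, mRNA base 2271: ctgactgcTGGACataaatca
FGF5, mRNA base 4620: tggataaaTGGACaaggccta
FGF5, mRNA base 5238: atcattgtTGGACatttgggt
FGFR3, mRNA base 3525: tttaaaacTGGACctgtatat
FGFR3, mRNA base 3840: ttatttttTGGACttcaaagc
FGFR3, mRNA base 4065: ttatagccTGGACtgctacct
FGFR4, mRNA base 2829: cggcttctTGGACcttggcgc
PDGFB, mRNA base 2117: gagcgctgTGGACtgtcctga
PDGFB, mRNA base 2357: tgaagacgTGGACtcctcttg
PDGFB, mRNA base 2879: actccttgTGGACtggctgtg
PDGFB, mRNA base 3682: ctgacacgTGGACttgtgcgt

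The base given is that of the T of TGGAC, counted from 1 at the 5′ end of the mRNA. The 3′ UTR of FGF2, 5840 bases long, exceeded that of 94.9% of the tested genes, and that of FGF5, with 4345 bases, exceeded 89.2%. FGFR4 lay at the other end with a 3′ UTR of 468 bases, longer than that of 23.9% of the tested genes. The FGF2 and FGF5 mRNAs held TGGAC in the 3′ UTR alone. In FGFR3, 8 of the 11 matches were in the coding sequence, and in FGFR4 6 of the 7.

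Total counts ranged from 16885449 to 18112179 per library, and 3 counts, the most that a count of 0 allows, equalled 0.166 to 0.178 CPM (counts scaled to the library total). Such limits cover counting error only. IGF2BP1 had 7550, 6904 and 8055 counts in NC libraries and 2193, 1980 and 2019 in KD libraries, with a log2 fold change (log2FC) of -1.85 and an SE (standard error) of 0.065, and no KD library reached the lowest NC library. Most markers of the labelled cell type were missing or low. Of 12 plasma cell markers, 3 were above 1 CPM in every library. Another 6 (CD38, TNFRSF17, IRF4, POU2AF1, CD27 and FCRL5) never exceeded 3 counts, and XBP1 was the most abundant with a mean of 86.7 CPM. All 12 erythroid markers were above 1 CPM in every library, with the embryonic globin HBE1 highest at a mean of 4901 CPM. The values reported here are those of the libraries as labelled.

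The mRNA levels of the 10 genes were compared in FPKM (fragments scaled to gene length and library total), which divides by gene length and so allows genes to be set side by side. In NC cells the order was FGFR3, FGFR4, FGF2, PDGFA, FGF5, PDGFB, PDGFRB, PDGFRA, FGFR1 and FGFR2. FGFR3 reached 25.7 ± 1.63 FPKM (SD, n = 3), FGFR4 7.53 ± 0.523, FGF2 4.93 ± 1.09 and PDGFA 1.48 ± 0.123, and the ranges of these 4 genes did not overlap. The remaining 6 genes lay under 1 FPKM. FGF5 (0.522 ± 0.211) and PDGFB (0.339 ± 0.0320) overlapped in their ranges, and so did each neighbouring pair among PDGFRB, PDGFRA, FGFR1 and FGFR2. In KD cells the first 5 genes kept their order without overlap, and PDGFRA, PDGFB, PDGFRB and FGFR1 followed with ranges that overlapped from one to the next. By mean FPKM over all libraries FGFR3 was above 83.3% of the genes in the table and FGFR2 above 23.4%. FGFR3 made up 76.5% to 77.9% of the summed FPKM of the 4 FGF receptors in NC libraries and 72.2% to 76.4% in KD libraries. It was thus the main transcript of these 4 in all 6 libraries. FGFRL1, which lacks a kinase domain, was not in this sum and had 13.4 to 14.9 FPKM in NC libraries. In KD libraries FGFRL1 had 11.2 to 14.3 FPKM, beside 13.1 to 15.7 for FGFR3.

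**Figure D1:**
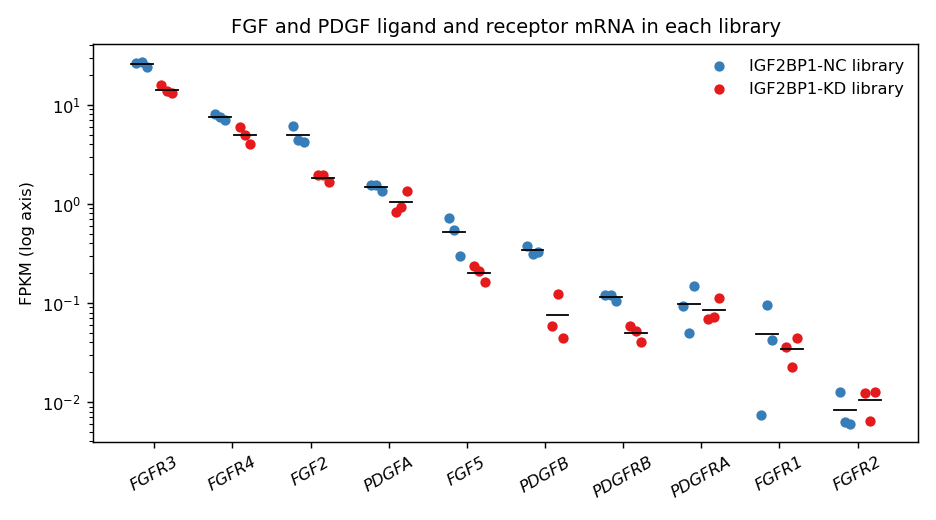
FPKM of the 10 FGF and PDGF ligand and receptor genes on a log axis, in the order of their NC means. Points are libraries (3 per group) and short lines are group means. FGFR3 is the highest in every library, and the 4 genes at the right lie between 0.006 and 0.15 FPKM.

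Of the 10 genes, 8 had enough counts to be tested across the table, and FGFR1 and FGFR2 did not. In edgeR's quasi-likelihood test over 11994 genes, adjusted by the Benjamini-Hochberg method, 5 of the 8 (FGF2, FGF5, FGFR3, FGFR4 and PDGFB) were lower in KD cells at an adjusted p under 0.05 and 0 were higher. Over all tested genes 14.5% were lower and 13.7% higher at this threshold, or 28.2% in either direction. The 3 others were PDGFA, PDGFRA and PDGFRB. PDGFB and PDGFRB had 10 or more counts in NC libraries alone, and so entered the test through the group in which they were higher. Every KD value lay under every NC value in CPM for 6 of the 10 genes, the 5 named above and PDGFRB, where this held for 22.2% of the tested genes. In bulk RNA, a smaller number of cells expressing a gene and less of its RNA per cell cannot be told apart.

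FGF2, or basic FGF, is a ligand of all 4 FGF receptors that leaves the cell without a classical signal peptide. It is encoded by 3 exons of the plus strand of chromosome 4 (GRCh38, 122826682 to 122898236). It had 725, 521 and 513 counts in NC libraries and 235, 222 and 194 in KD libraries. The groups lay far apart, and NC library 1 stood above the other 2 of its group. The log2FC was -1.43 (SE 0.15), which puts KD cells at 37.2% of the control level, and it stayed between -1.52 and -1.24 when 1 library was left out. On the scale of log2(FPKM + 1), which compresses low values, it was -1.05. The gene overlaps NUDT6, read from the opposite strand, over 9540 bases. The library kit keeps strand, but the strand setting of the counting is not stated, so reads of the 2 genes could have been mixed. NUDT6 had 134, 124 and 107 counts in NC libraries and 104, 113 and 110 in KD libraries, with a log2FC of -0.15 (SE 0.16, adjusted p = 0.516 from edgeR).

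FGF5, a secreted FGF known as a regulator of the hair growth cycle, is encoded on chromosome 4 from 80266639 to 80336680 on the plus strand. It had 71, 54 and 31 counts in NC libraries and 24, 20 and 16 in KD libraries. All KD values were lower, but the control libraries differed among themselves by more than the gap between the groups. FGF5 had a log2FC of -1.37 (SE 0.34), with a range of -1.64 to -1.08 when single libraries were left out. In CPM, FGF2 and FGF5 were both highest in NC library 1 and lowest in KD library 3, and so were FGFR4, PDGFB and PDGFRB. FGF2 made up 89.0% to 93.3% of the summed FPKM of the 2 ligands in NC libraries and 89.2% to 91.1% in KD libraries.

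The other ligands of the family were hardly detected. Of the 16 secreted FGFs outside the 10 genes, 11 never exceeded 3 counts and 1, FGF17, was tested (log2FC 0.39, adjusted p = 0.613 from edgeR). FGF22 was the highest of them by length with a mean of 0.738 FPKM, from at most 12 counts. FGF2 was thus the most abundant FGF ligand transcript of these libraries in FPKM. Of the FGF homologous factors, which stay inside the cell and bind no FGF receptor in the usual way, FGF13 was lower in KD cells (log2FC -0.31, adjusted p = 0.0395 from edgeR), a call that was lost in 4 of the 6 fits without a library and in 3 other settings, and FGF11 had a log2FC of -0.037.

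FGFR3, the receptor that t(4;14) activates in myeloma, is encoded by 18 exons of the plus strand of chromosome 4 (1793293 to 1808872). It had 2023, 2101 and 1929 counts in NC libraries and 1251, 1036 and 1015 in KD libraries. The spread within each group was small beside the gap between them. The log2FC was -0.87 (SE 0.082), or 54.7% of the control level, and ranged from -0.95 to -0.81 with single libraries left out. NSD2, the other gene that t(4;14) activates, had 5310, 5154 and 5774 counts in NC and 5828, 5456 and 5749 in KD libraries. Its log2FC was 0.077 (SE 0.057, adjusted p = 0.346 from edgeR). In CPM the 3 KD libraries (323 to 330) lay just above the 3 NC libraries (296 to 319), a small difference in the other direction that was not called. Whether the cells of these libraries carry t(4;14) was not tested.

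FGFR4, encoded on chromosome 5 from 177086905 to 177098144 on the plus strand, is the receptor that FGF19 uses in liver. It had 467, 441 and 425 counts in NC libraries and 359, 281 and 233 in KD libraries. The groups did not overlap, and KD library 3 was the lowest. FGFR4 had a log2FC of -0.61 (SE 0.14), with a range of -0.76 to -0.47 over the fits that left out a library. FGFR1, a widely expressed receptor of mesenchymal cells, had 1, 13 and 6 counts in NC and 5, 3 and 6 in KD libraries, and the groups overlapped. FGFR2, typical of epithelia, had 2, 1 and 1 against 2, 1 and 2 counts, which is within what a count of 0 allows, and no fold is given for it.

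The promoters of FGFR3 and FGF5 are printed as examples of a receptor and a ligand gene that were lower in KD cells. Promoter sequences of RefSeq (GRCh38.p14) were at hand for 8 of the 10 genes. Each sequence holds the 250 bases before the start that RefSeq gives the gene, 5′ to 3′ on the gene's strand. That start can differ from the GENCODE start used for the gene positions above, so the FGF5 window ends short of its GENCODE start, and some of the 8 windows, FGF2 and PDGFA among them, run into the GENCODE gene. Capitals mark the GC box GGGCGG or its reverse complement CCGCCC, which SP family factors bind.

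FGFR3, chr4:1793043-1793292, plus strand: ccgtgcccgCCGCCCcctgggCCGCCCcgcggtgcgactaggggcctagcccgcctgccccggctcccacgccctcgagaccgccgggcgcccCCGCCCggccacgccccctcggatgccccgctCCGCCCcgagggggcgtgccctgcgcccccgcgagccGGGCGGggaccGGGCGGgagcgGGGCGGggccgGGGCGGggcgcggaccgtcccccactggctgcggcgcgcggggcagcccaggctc
FGF5, chr4:80266338-80266587, plus strand: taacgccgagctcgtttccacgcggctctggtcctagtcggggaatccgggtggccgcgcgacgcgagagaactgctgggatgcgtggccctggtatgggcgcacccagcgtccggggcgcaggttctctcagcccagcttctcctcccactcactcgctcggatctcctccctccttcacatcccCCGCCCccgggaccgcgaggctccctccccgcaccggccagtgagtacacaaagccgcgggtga

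The FGFR3 promoter held 8 GC boxes and had a GC content of 86.8%, and the FGF5 promoter held 1 and had 68.8%, where the median over the promoters of tested genes was 64.8%. The GC box was found in 67.9% of these promoters. It was found in 7 of the 8 promoters of the genes described here, PDGFRA being the exception. The sequence GGGTG or its reverse complement CACCC, bound by KLF factors, was found in 5 of the 8 and in 58.3% of the promoters of tested genes. The core GATAA and its reverse complement TTATC, which GATA factors bind, and the box TATAAA with TTTATA were found in none of the 8, as against 12.8% and 5.2% of the promoters of tested genes. A missing match says only that these letters are not in the window.

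PDGFB, the B chain of platelet-derived growth factor and the cellular counterpart of the v-sis oncogene, is encoded by the minus strand of chromosome 22 (39223359 to 39244982). It had 25, 21 and 23 counts in NC libraries and 4, 8 and 3 in KD libraries. The groups lay apart, but with 3 to 8 counts per library the KD level rests on few reads. The log2FC was -2.16 (SE 0.42), the largest in size among the 8 tested genes, and ranged from -2.69 to -1.90 with single libraries left out. Among genes whose log2 CPM averaged 3 or more, the 3 whose pattern over the 6 libraries was most like that of PDGFB were STK11IP, TOM1L1 and ETFA, with Pearson's r of 0.997, 0.996 and 0.994. Their log2FC values of -0.27, -0.68 and -0.19 were smaller in size than that of PDGFB, since r takes no account of size. These r values are a description over 6 libraries in 2 groups, where the gene at rank 1000 of 9239 still had an r of 0.888.

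PDGFA, the A chain, forms dimers with itself or with the B chain and is encoded by the minus strand of chromosome 7 (497258 to 520296). It had 90, 90 and 81 counts in NC libraries and 50, 52 and 78 in KD libraries. In CPM, KD library 3 was level with the lowest control (90.6% against 90.4% of the NC mean), and the other 2 KD libraries lay under all controls. The log2FC was -0.53 (SE 0.22), and PDGFA was not among the called genes. Without KD library 3 it was -0.76 and passed the threshold. PDGFA made up 80.3% to 83.2% of the summed FPKM of the 2 chains in NC libraries and 88.2% to 96.8% in KD libraries. PDGFC and PDGFD, which need proteolytic cleavage to bind their receptors, had at most 2 counts in every library.

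The PDGF receptors, whose usual sites of expression are fibroblasts, pericytes and other mesenchymal cells, were near the limit of detection. PDGFRB had 12, 12 and 11 counts in NC libraries and 6, 5 and 4 in KD libraries, a log2FC of -1.20 (SE 0.43). The groups did not overlap, yet PDGFRB was not called in the edgeR fit, and limma-voom was the only alternative that called it. PDGFRA had 13, 7 and 22 counts against 10, 10 and 16, with overlapping groups and a log2FC of -0.21 (SE 0.45), which turned to 0.26 without NC library 3. No change in PDGFRA was detectable at this depth.

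**Figure D2:**
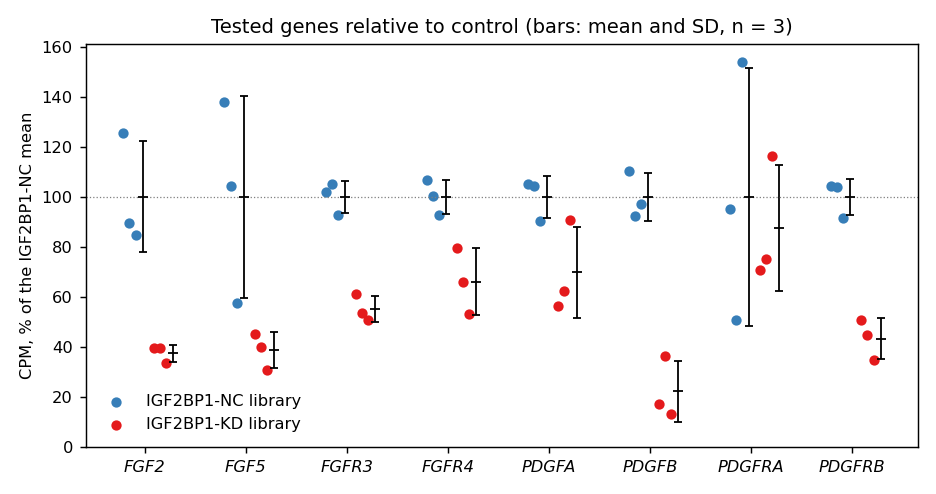
CPM of the 8 tested genes as a percentage of the mean of the NC libraries. Points are libraries, and bars are the mean with SD (n = 3 per group). The KD libraries lie between 13.2% and 36.3% for PDGFB, between 33.4% and 39.4% for FGF2 and between 50.9% and 61.0% for FGFR3, and overlap with the controls for PDGFA and PDGFRA.

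Other genes of these pathways were read from 9 lists drawn up by role. Of 133 such genes, 82 were tested, 10 were higher and 10 lower in KD cells at an adjusted p under 0.05, and 62 were not called. This is 24.4% of the genes tested, beside 28.2% of all tested genes, and the median log2FC was -0.030, beside -0.0048 over all tested genes. A change of at least 2-fold in either direction was found for 0 of the 20 called genes. The number of called genes fell to 11, 13 and 12 without KD library 1, 2 and 3. A call under every alternative tried was found for 7 of the 20, which included SOS1, PLCG1 and SPRED1 among the lower and CCND1, SPRY4 and GLCE among the higher genes. Genes of these lists that follow were named after their values had been seen, other than the most abundant gene of each list.

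Of the adaptors and the RAS-ERK core, 30 of 31 genes were tested, of which 2 were higher and 4 lower, with a median log2FC of -0.029. The log2FC was -0.45 for SOS1, an exchange factor of RAS (adjusted p = 0.00136), and -0.32 for PLCG1, a phospholipase that binds FGF and PDGF receptors directly (adjusted p = 0.00294, both from edgeR). The 2 higher genes were SOS2, the paralog of SOS1, with 0.38 and PTPN11 with 0.18 (adjusted p = 0.0434 and 0.0377 from edgeR). Their calls were lost in 5 and 4 of the 6 fits that left out a library. FRS2, the adaptor of the FGF receptors, had 2.30 ± 0.177 FPKM in NC and 2.67 ± 0.219 FPKM in KD cells and was not called.

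Of 20 genes that ERK signalling induces or that feed back on it, 16 were tested, with 3 higher and 2 lower. FOSL1, the most abundant of them, had a log2FC of 0.065 (adjusted p = 0.630 from edgeR). CCND1, which encodes cyclin D1, and SPRY4, an inhibitor of receptor tyrosine kinase signalling, were higher, with log2FC values of 0.74 and 0.64 (adjusted p = 0.000964 and 0.00430 from edgeR). ETV5, a transcription factor induced by FGF signalling, was lower with -0.66 (adjusted p = 0.0237), and its call was lost without NC library 1 or library 3 (adjusted p up to 0.0703, both from edgeR).

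Of 26 heparan sulfate proteoglycans and enzymes, which supply the chains that FGFs need to bind their receptors, 18 were tested, 4 were higher and 1 was lower. GLCE, an epimerase of the chain, had a log2FC of 0.58 (adjusted p = 0.00914 from edgeR). SDC3, a syndecan, had 0.40 (adjusted p = 0.0175), which was not called without NC library 2 or 3 (adjusted p up to 0.0776, both from edgeR). AGRN was the most abundant of the list and was not called (log2FC -0.053). The klotho co-receptors KL and KLB had at most 2 counts in every library. FGFRL1, an FGF receptor without a kinase domain, had a mean of 13.4 FPKM and a log2FC of -0.14 (adjusted p = 0.265 from edgeR).

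Of the other PDGF and VEGF ligands, VEGFA and VEGFB were tested and neither was called, VEGFA being the most abundant at a mean of 38.3 FPKM. Of the related receptors, KIT, FLT4 and NRP1 were tested and 0 of the 3 were called, KIT having 1, 5 and 14 counts in NC and 10, 15 and 24 in KD libraries (log2FC 1.29, adjusted p = 0.153 from edgeR). Of 9 genes of ligand processing and release, 1 was higher and 2 were lower.

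Markers of other cell types that use these genes were examined beside them. Over all tested genes 14.5% were lower and 13.7% higher, which is the background for each count of markers here. Platelets store PDGF, and of 12 megakaryocyte and platelet markers 5 were tested, of which 4 (GP1BB, GP6, ITGB3 and TUBB1) were lower in KD cells. The remaining tested marker, ITGA2B, had a log2FC of 0.44 and was not called (adjusted p = 0.295 from edgeR). The summed level over the list was 508 to 555 CPM in NC and 281 to 376 CPM in KD libraries. GP1BB was the most abundant, with a log2FC of -0.98 (adjusted p = 0.0178 from edgeR) that lost its call in 3 of the 6 fits that left out a library. ITGB3 kept its call in all 6 of these fits, while GP6 lost it in 2 and TUBB1 in 3. The markers GP1BA, GP9, PF4 and SELP had at most 2 counts in every library, while ITGA2B had 351 to 769. Of 10 fibroblast and pericyte markers 6 were tested, and the collagens COL1A1 and COL3A1 were lower, with log2FC values of -1.49 and -1.50 (adjusted p = 0.00344 and 0.000278 from edgeR). The other 4 were not called, with log2FC values of -1.57 for COL1A2, -0.64 for LUM, -0.097 for DCN and 0.34 for RGS5. For RGS5 every KD library lay above every NC library in CPM. The list summed to 36.2 to 56.3 CPM in NC and 13.6 to 24.7 CPM in KD libraries, COL3A1 was the highest in mean CPM, and THY1, POSTN and ACTA2 had at most 8 counts in every library. Of 12 erythroid markers 5 were lower and 0 higher, beside 14.5% lower and 13.7% higher over all tested genes, and 7 were not called. The median log2FC was -0.23, and the list summed to 8451 to 10100 CPM in NC and 9335 to 10160 CPM in KD libraries. ALAS2, not called, had a log2FC of 0.73 (adjusted p = 0.107 from edgeR), and every KD library lay above every NC library. Of 8 endothelial markers 2 were tested and neither was called, PECAM1 being the most abundant and CDH5, ERG, CLDN5 and EMCN never exceeding 3 counts. The summed level was 24.2 to 37.3 CPM in NC and 28.1 to 33.7 CPM in KD libraries. SLAMF7 was the 1 plasma cell marker of the 5 tested that was higher, with 4, 5 and 4 counts in NC and 52, 42 and 181 in KD libraries. With so few NC counts, SLAMF7 entered the test through the KD group, in which it was higher. Its log2FC was 4.37, or 3.41 without KD library 3, and its call was lost without NC library 1 or 3 (adjusted p up to 0.0588 from edgeR). The plasma cell list summed to 77.2 to 162 CPM in NC and 81.1 to 87.2 CPM in KD libraries. The part of these cell type markers in the levels of the FGF and PDGF genes was not tested.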

How the data were processed

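RNA-seq of 3 IGF2BP1-NC and 3 IGF2BP1-KD libraries was grouped by the labels. The authors used Trimmomatic for trimming, HISAT2 for mapping to GRCh38 and HTSeq-count for counting, and deposited raw read counts. The FPKM values deposited by the authors are described as from Cufflinks, and each equals the count over gene length and library total. Versions, annotation release and strand setting are not given in the sources used here.

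Counts were scaled by TMM, filtered with filterByExpr and tested with edgeR 4.0.16 in R 4.3.3 (glmQLFit with robust estimation, glmQLFTest, two-sided, adjusted by the Benjamini-Hochberg method over all tested genes). Alternatives used DESeq2 1.42.0, limma 3.58.1, other scaling and filters, log2(FPKM) with a pseudocount of 1 or 0.1, a replicate block, and each library left out. The tests were checked on simulated counts. Gene models came from GENCODE release 44. The genes and lists were chosen with earlier results of these data known. The rule for named genes took all 10 ligands and receptors, IGF2BP1, called pathway genes of at least 2-fold, the most abundant gene of each pathway list (FPKM) and marker list (CPM), markers at 3 counts or fewer, and the 3 genes most like PDGFB. Other genes were named after their values were seen. Some genes that this rule names are not reported here.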

Additional observations from a re-analysis of the deposited data

How the results depend on the processing

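The 5 called FGF and PDGF genes were called in each of the 6 fits that left out a library, with 5 to 6 of the 10 genes called. FGF5 came closest to the threshold in these fits. The fits share libraries and the genes were chosen with the contrast known, so the repeated calls are a description. With at least 10 counts required in every library, 5 of the 10 genes were tested and 4 were called, PDGFB not being tested. With limma on log2(FPKM + 1) or log2(FPKM + 0.1), which tested 4 of the 10 genes because the others lie under a mean of 1 FPKM, 3 were called. The number of other pathway genes called, 20, ranged from 11 to 22 with single libraries left out. The log2 fold change of PDGFRA ranged from -0.52 to 0.26, turning to 0.26 without IGF2BP1-NC library 3, and the cause was not tested. Over all genes, 3386 were called, and 2290 to 3991 with single libraries left out. Upper-quartile factors gave 1953 higher and 1523 lower genes, beside 1648 and 1738 with TMM. With the replicate number as a block, 2913 genes, 5 of the FGF and PDGF genes and 18 of the other pathway genes were called. Libraries with the same number did not deviate together (Pearson's r -0.131, -0.0386 and -0.112 across 9239 genes), so the numbers were not taken to pair them. With under 30 counts in every library, PDGFB, PDGFRA, PDGFRB, FGFR1 and FGFR2 are limited by depth.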
